A study of Mus musculus with 6 samples.

Results

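Heparanase, encoded by *Hpse*, and 7 genes of heparan sulfate core proteins or chain synthesis were examined in sorted splenic Tfh cells. The 8 genes were taken from 53379 genes listed in the count files by symbol and function, and the set was chosen by function with the values of *Hpse* in *Prdm1*-CKO against CTL mice already known. For that reason the difference between the groups is described for these 8 genes without a test. Tests are given only for 60 other genes of the same pathway.

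Tfh cells were sorted as live TCRβ+ CD4+ CXCR5+ PD1+ cells from spleens of female mice, 3 of them CTL and 3 of them *Prdm1*-CKO. Mice of the *Prdm1*-CKO group were *Prdm1* fl/fl with CD11c-Cre, so that the gene encoding BLIMP-1 is deleted in CD11c-expressing cells, mainly DCs, and the Tfh cells themselves are not the target. The CTL group of the study comprised *Prdm1* fl/fl mice without Cre and *Prdm1* +/+ mice with CD11c-Cre, and the labels do not say which of these each CTL mouse was. All mice were immunized with NP-CGG in CFA and killed on day 7, and they were 6 to 8 weeks old at immunization. The labels name the second group Blimp1 KO in titles and Blimp1 KD in the genotype field. Nothing in them ties a CTL mouse to a *Prdm1*-CKO mouse.

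Heparan sulfate is a sulfated sugar chain carried by core proteins such as the membrane-bound syndecans. EXT1 and EXT2 form the complex that lengthens the chain, NDST enzymes start its sulfation, and the finished chain binds chemokines, cytokines and growth factors. Heparanase is the endoglycosidase that cuts the chain, and in leukocytes it is known for its part in passage through basement membranes.

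Each mouse gave 1 Smart-seq2 library, deposited as raw counts, with total counts between 7147601 and 16973392. The smallest level that a library could show, set at 3 counts, lay between 0.177 and 0.420 CPM, the count scaled to the library total, and covers counting error only. CTL replicate 2 stood apart from the other 5 mice on the first principal component of log2 CPM, which held 56.4% of the variance. At an equal depth of 7147601 counts, 16517 genes would be detected in CTL replicate 2, against 18480 to 19935 in the other mice. Of 9804 genes with at least 5 CPM in each of the other 5 mice, 57 had 0 counts in CTL replicate 2, and 0 such genes were found for any other mouse. The sets for the other mice held 9449 to 9524 genes, since they require 5 CPM in CTL replicate 2 as well. Values without this mouse stand beside the results that it moved most. *Prdm1* itself was at 28.8 ± 1.23 CPM (SD, n = 3) in CTL and 30.6 ± 0.374 CPM (SD, n = 3) in *Prdm1*-CKO Tfh cells, a log2 difference of 0.09 with a standard error of 0.19. This does not check the deletion, since the Cre is not directed at T cells.

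All of 9 Tfh marker genes were detected in both groups, which by itself does not establish Tfh identity. *Cxcr5* lay between 254 and 477 CPM and *Bcl6* between 66.0 and 124 CPM over the 6 mice, both with overlap of the groups. The sort described for these libraries did not use FOXP3, so follicular regulatory T cells were not gated out. *Cd4* lay between 896 and 1061 CPM in CTL mice and was lower in each *Prdm1*-CKO mouse, at 774 to 847 CPM. It was the only 1 of the 9 Tfh markers without overlap, beside 3.86% of all genes tested that lay below in this way. *Cd3e* lay between 542 and 786 CPM over the 6 mice with overlap. Of the 9 Tfh markers, 4 had a log2 fold change above 0 and 1 had an unadjusted p under 0.05 (edgeR). RNA of other cells was present as well. The summed level of 10 macrophage markers ran from 514 to 1425 CPM in CTL and from 1046 to 1458 CPM in *Prdm1*-CKO mice, with *Csf1r* between 319 and 827 CPM. The summed level of 9 plasma cell markers ran from 2819 to 4633 CPM in CTL and from 4141 to 6124 CPM in *Prdm1*-CKO mice, most of it from *Ighm*. The groups overlapped in both sums. Of the 9 plasma cell markers, 7 had a log2 fold change above 0, and 1 of the 9 had an unadjusted p under 0.05 (edgeR). At that threshold 0.928% of all genes tested were higher and 1.42% were lower. In 2 of the 9, every *Prdm1*-CKO mouse was above every CTL mouse, beside 4.56% of all 14555 genes tested. Fewer cells of a type and less RNA per cell cannot be told apart in these bulk libraries.

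*Hpse* and *Sdc3* were the 2 genes of the set in which the levels of *Prdm1*-CKO mice all exceeded those of CTL mice, and their promoters are shown for that reason. Promoter sequences from RefSeq, 250 bases before to 50 bases after the start on GRCm38.p6, matched 6 of the 8 genes, and *Ext1* and *Ndst1* had no entry. The *Hpse* promoter lies at chr5:100719667-100719966 on the minus strand with a GC content of 67.0%, and the *Sdc3* promoter at chr4:130792287-130792586 on the plus strand with a GC content of 77.7%. Both are printed 5′ to 3′ on the gene's strand, with capitals marking matches on either strand to GGGCGG, the GC box of the SP1 family, or to GTGGGCG, a core of EGR factor sites.
Hpse: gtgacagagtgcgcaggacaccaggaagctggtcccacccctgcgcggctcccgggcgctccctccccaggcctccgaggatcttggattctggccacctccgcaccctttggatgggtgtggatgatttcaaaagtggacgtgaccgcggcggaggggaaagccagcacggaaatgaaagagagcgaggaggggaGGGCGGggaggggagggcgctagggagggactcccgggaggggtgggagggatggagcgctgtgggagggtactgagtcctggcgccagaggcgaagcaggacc
Sdc3: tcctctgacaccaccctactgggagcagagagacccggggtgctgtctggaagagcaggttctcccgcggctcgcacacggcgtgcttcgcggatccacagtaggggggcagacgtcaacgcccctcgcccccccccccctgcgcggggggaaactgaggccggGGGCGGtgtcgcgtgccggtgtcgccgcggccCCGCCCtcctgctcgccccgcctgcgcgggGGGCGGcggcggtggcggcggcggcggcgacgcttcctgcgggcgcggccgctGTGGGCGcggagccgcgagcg
The *Hpse* promoter held 1 GC box, which begins at position -54 from the start, and the *Sdc3* promoter held 3, which begin at -86, -54 and -24. The promoters of *Sdc1*, *Sdc4* and *Ndst2*, genes with overlap of the groups, held 3, 4 and 3 GC boxes, and that of *Ext2* held 0. A GC box occurs in 35.7% of the 32851 promoters of 300 bases in the table. The EGR core was found once in the *Sdc3* promoter, from position 30, and occurs in 7.97% of all promoters. It was not found among these letters of *Hpse*. GTGAAAG, a core of BLIMP-1 sites, occurs in 4.24% of all promoters, and none of the 6 matched promoters of the set held it. The GC box and the EGR core share letters, so that 1 stretch can match both, as in the promoters of *Sdc1* and *Sdc4*. These matches describe letters only.

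The level of *Hpse*, on chromosome 5 of GRCm38 from 100679484 to 100719716, was higher in each *Prdm1*-CKO mouse than in any CTL mouse. It was at 27.6, 23.0 and 29.1 CPM in CTL replicates 1 to 3. In *Prdm1*-CKO replicates 1 to 3 it was at 45.9, 45.0 and 53.3 CPM. The lowest *Prdm1*-CKO mouse thus stood well clear of the highest CTL mouse, and each group was tightly spaced. The raw counts behind these levels were 403, 194 and 197 in CTL and 815, 443 and 778 in *Prdm1*-CKO mice, far above the floor of 3 counts. Means were 26.6 ± 3.21 CPM (SD, n = 3) in CTL and 48.1 ± 4.52 CPM (SD, n = 3) in *Prdm1*-CKO mice, a difference of 0.86 on the log2 scale with a standard error of 0.20, or 1.81-fold. Without CTL replicate 2 the log2 difference was 0.75, and with each other mouse left out in turn it stayed between 0.78 and 0.93. The plot of CPM by mouse shows this gap beside the other 7 genes.

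**Figure D1:**
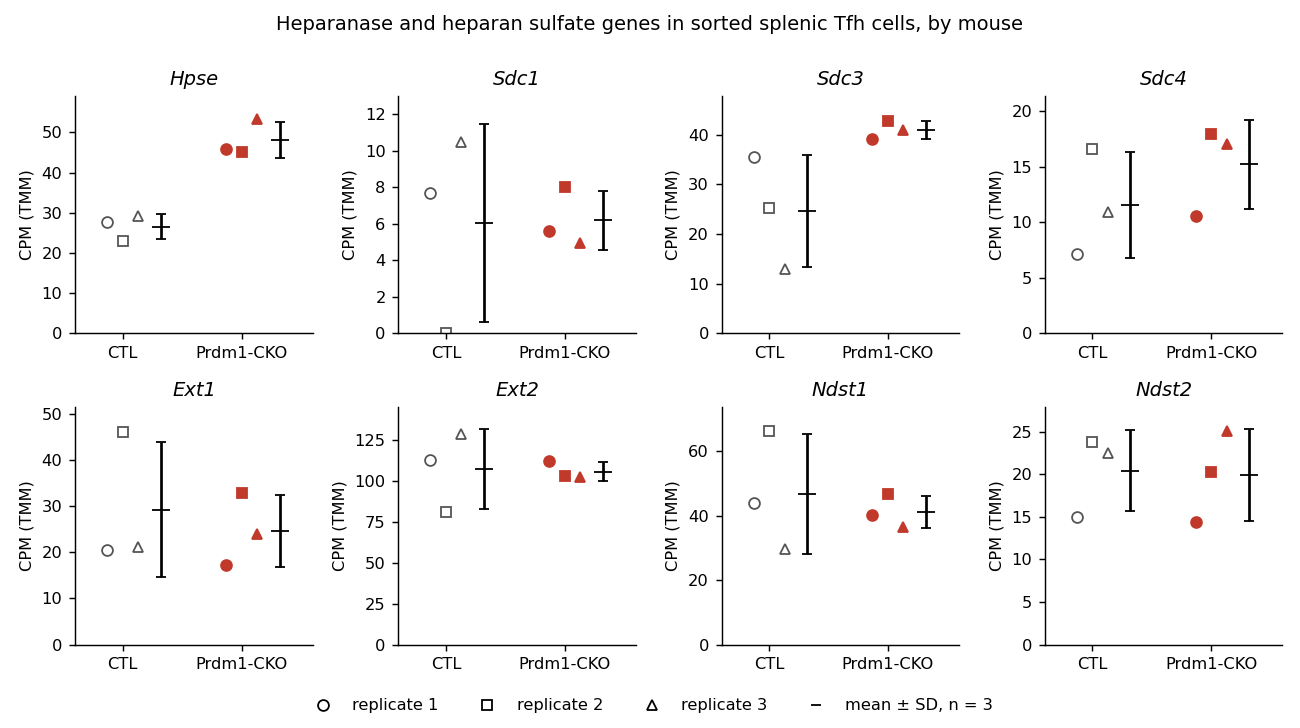
Level in CPM with TMM normalization (y axis, from 0) of the 8 genes in each of 3 CTL mice (open grey) and 3 Prdm1-CKO mice (filled red), with the replicate number as symbol and the mean ± SD of each group in black. Hpse and Sdc3 are the panels without overlap between the groups, and Sdc1 has 0 counts in CTL replicate 2.

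Of the 8 genes, 2 had every *Prdm1*-CKO mouse above every CTL mouse and 0 had every *Prdm1*-CKO mouse below. Among all 14555 genes that passed edgeR's expression filter, 4.56% lay above and 3.86% below in this way. Since *Hpse* entered the set for this difference, nothing is read from the count. All 8 genes passed the filter. The median log2 difference over them was 0.0042, beside 0.010 over all genes tested, with 4 genes above 0 and 4 below.

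Syndecans are the transmembrane core proteins that carry heparan sulfate at the cell surface. The level of *Sdc3*, on chromosome 4 from 130792537 to 130826319, was at 35.6, 25.2 and 13.0 CPM in CTL replicates 1 to 3. In *Prdm1*-CKO replicates 1 to 3 it was at 39.1, 42.8 and 41.0 CPM. The *Prdm1*-CKO mice were close to each other, the CTL mice spread widely, and CTL replicate 1 came near to the *Prdm1*-CKO range. Means were 24.6 ± 11.3 CPM (SD, n = 3) and 41.0 ± 1.85 CPM (SD, n = 3), a log2 difference of 0.73 with a standard error of 0.34. CTL replicate 3 set much of its size, since the log2 difference was 0.43 without that mouse, and it was 1.09 without CTL replicate 1 and 0.73 without CTL replicate 2. Exons of *Sdc3* overlap the antisense genes *Gm26716* by 415 bp and *Gm12970*, both at 0 counts in all 6 mice, and the strand setting of the counting is not stated in the sources used here.

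*Sdc4*, on chromosome 2 from 164424247 to 164443887, encodes the syndecan found at focal adhesions. It was at 7.12, 16.6 and 10.9 CPM in CTL and at 10.6, 17.9 and 17.1 CPM in *Prdm1*-CKO mice. The groups overlapped, with CTL replicate 2 near the top and *Prdm1*-CKO replicate 1 below CTL replicate 3. The log2 difference was 0.40 with a standard error of 0.39, and it was 0.74 without CTL replicate 2 and 0.13 without CTL replicate 1. *Sdc1*, on chromosome 12 from 8771323 to 8793715, encodes CD138, which is widely used as a plasma cell marker. It was at 7.67, 0 and 10.5 CPM in CTL and at 5.63, 8.03 and 4.93 CPM in *Prdm1*-CKO mice. Thus 5 mice lay between 4.93 and 10.5 CPM, and CTL replicate 2 had 0 counts against 71 to 112 in the other mice. For that mouse 0 counts allow a level of up to 0.348 CPM of its total counts. The log2 difference of 0.03 had a standard error of 1.10, and without CTL replicate 2 it was -0.56. Of 9 plasma cell markers, 7 were lower in CTL replicate 2 than in any other mouse, *Jchain* at 254 CPM and *Xbp1* at 146 CPM among them, and 2 (*Tnfrsf17* and *Fkbp11*) had 0 counts there. The part of plasma cell RNA in *Sdc1* was not tested.

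The chain polymerase genes showed no gap between the groups. *Ext2*, on chromosome 2 from 93661028 to 93822568, was at 112, 80.7 and 129 CPM in CTL and at 112, 103 and 102 CPM in *Prdm1*-CKO mice. All *Prdm1*-CKO mice lay inside the CTL range. The log2 difference was -0.02 with a standard error of 0.20, and leaving out each mouse in turn gave -0.20 (without CTL replicate 2) to 0.13 (without CTL replicate 3). *Ext1*, on chromosome 15 from 53064038 to 53346159, was at 20.6, 46.2 and 21.2 CPM in CTL and at 17.4, 32.9 and 23.9 CPM in *Prdm1*-CKO mice. CTL replicate 2 was the highest mouse by a wide margin. The log2 difference was -0.25 with a standard error of 0.39 and turned to 0.23 without CTL replicate 2.

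NDST enzymes replace acetyl groups of the growing chain with sulfate, the step on which later sulfation depends. *Ndst1* was at 44.0, 66.5 and 29.6 CPM in CTL and at 40.2, 46.7 and 36.6 CPM in *Prdm1*-CKO mice. The *Prdm1*-CKO mice again lay inside the CTL range. Its log2 difference was -0.18 with a standard error of 0.30 and turned to 0.15 without CTL replicate 2. *Ndst2*, on chromosome 14 from 20723730 to 20734562, is known for its role in heparin synthesis by mast cells. It was at 15.0, 23.8 and 22.5 CPM in CTL and at 14.4, 20.3 and 25.1 CPM in *Prdm1*-CKO mice, with full overlap of the groups. Its log2 difference was -0.03 with a standard error of 0.31 and turned to 0.08 without CTL replicate 2.

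**Figure D2:**
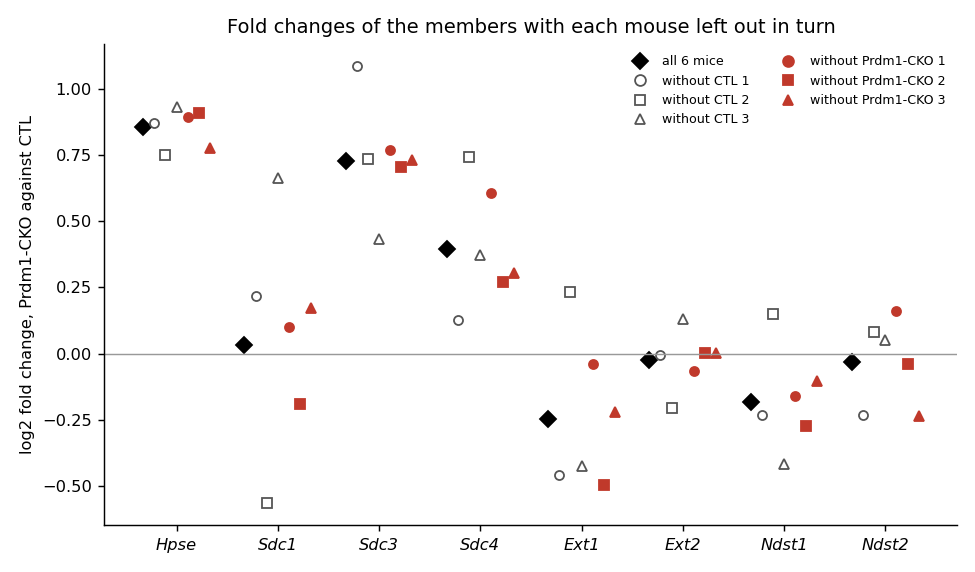
Log2 fold change of Prdm1-CKO against CTL from edgeR (y axis) for each of the 8 genes with all 6 mice (black diamond) and with each mouse left out in turn (open grey for a CTL mouse, filled red for a Prdm1-CKO mouse, symbol by replicate number). Hpse, Sdc3 and Sdc4 stay above 0 in these fits, whereas Ext1 and Ndst1 cross 0 without CTL replicate 2, and Sdc1, Ext2 and Ndst2 cross 0 in more than 1 fit.

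The question of *Hpse* against the other genes was also answered within each mouse, where no scaling between libraries enters. As a percentage of the summed counts of the other 7 genes, *Hpse* stood at 11.4%, 8.87% and 12.3% in CTL replicates 1 to 3. In *Prdm1*-CKO replicates 1 to 3 it stood at 19.2%, 16.6% and 21.3%. Every *Prdm1*-CKO mouse was again above every CTL mouse, and the mean log2 ratio differed by 0.81, or 1.76-fold. Without CTL replicate 2 the log2 difference was 0.68.

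*Ext2* makes up the largest share of that sum, so the ratio was also taken to each gene by itself. Against *Ext2*, *Hpse* counts were 24.5%, 28.5% and 22.6% in CTL and 41.0%, 43.9% and 52.2% in *Prdm1*-CKO mice. Against *Ndst2* they were 184%, 96.5% and 130% in CTL and 320%, 222% and 212% in *Prdm1*-CKO mice. In both ratios the groups did not overlap. Against *Sdc1* the groups did not overlap either, with a log2 difference of 1.32 that leaves out CTL replicate 2, where *Sdc1* had 0 counts. Against *Sdc3* the ratio was 77.6%, 91.1% and 224% in CTL and 117%, 105% and 130% in *Prdm1*-CKO mice. The mean log2 ratio to *Sdc3* differed by 0.0066, and the CTL mice lay on both sides of the *Prdm1*-CKO mice. Against *Sdc4*, *Ext1* and *Ndst1* the log2 differences were 0.42, 1.04 and 0.97, with overlap in each. Without CTL replicate 2 these became 0.014, 0.56 and 0.57, still with overlap, and those to *Sdc3*, *Ext2* and *Ndst2* were -0.17, 0.95 and 0.68, where the latter pair still did not overlap.

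**Figure D3:**
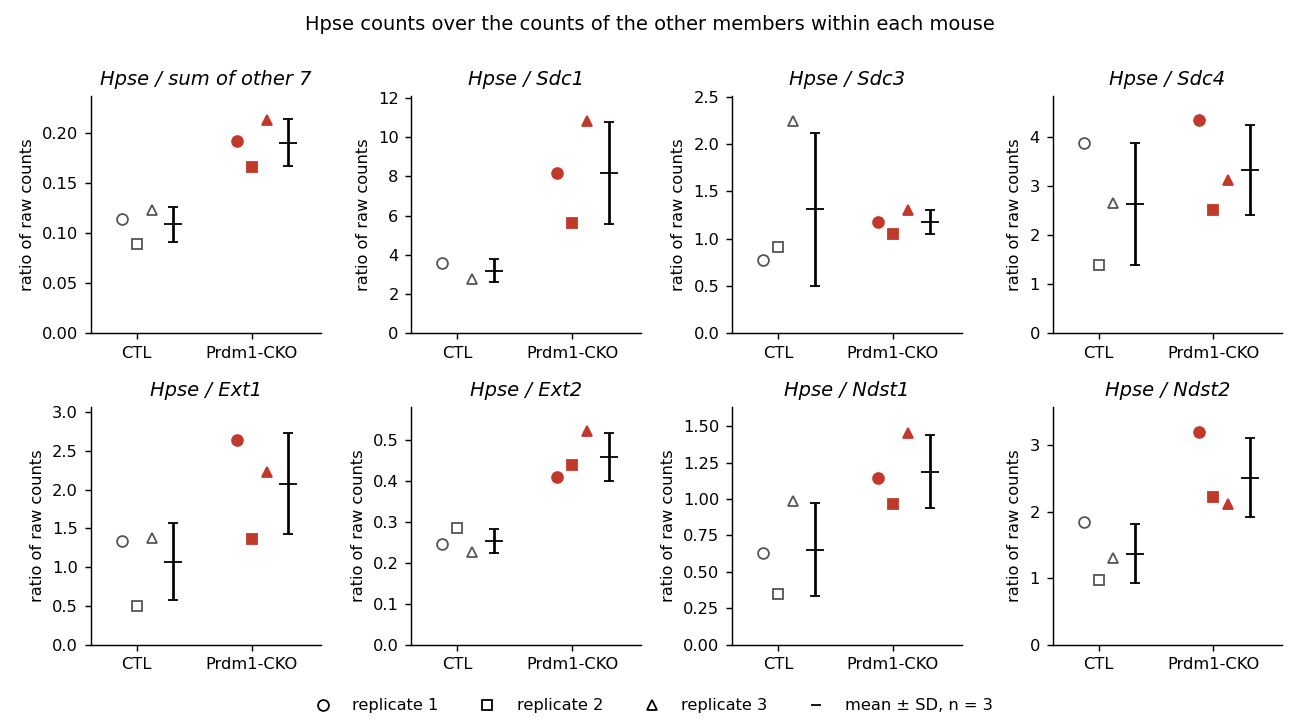
Raw Hpse counts divided by the summed counts of the other 7 genes (first panel) or by those of a single gene (y axis, from 0) in each CTL (open grey) and Prdm1-CKO mouse (filled red), with the mean ± SD of the group in black. The panel for Sdc1 leaves out CTL replicate 2, which had 0 Sdc1 counts (n = 2 CTL mice there, n = 3 elsewhere), and in the panel for Sdc3 the CTL mice lie on both sides of the Prdm1-CKO mice.

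To compare levels between genes, CPM were divided by the exon length of each gene in kb. *Ext2* was highest at 14.5 ± 2.17 CPM per kb (SD, n = 6 mice), followed by *Hpse* at 10.6 ± 3.50 CPM per kb (SD, n = 6 mice). In CTL mice *Hpse* was at 7.56 ± 0.913 CPM per kb (SD, n = 3), below *Ext2* in each of them. In *Prdm1*-CKO mice it was at 13.7 ± 1.29 CPM per kb (SD, n = 3), next to *Ext2* at 14.4 ± 0.764 CPM per kb (SD, n = 3), and above *Ext2* in replicate 3 alone.

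By these pooled means, *Sdc3* came below at 5.47 ± 1.92, *Ndst1* at 5.30 ± 1.52, *Sdc4* at 5.25 ± 1.73 and *Ndst2* at 4.44 ± 1.00 CPM per kb (SD, n = 6 mice). The place of *Sdc3* in this order differed between the groups. In CTL mice it was at 4.11 CPM per kb, below *Ndst1* at 5.64, *Sdc4* at 4.54 and *Ndst2* at 4.49 CPM per kb, and in *Prdm1*-CKO mice it was above all of these at 6.84 CPM per kb. *Hpse* exceeded *Sdc3* in 6 of 6 mice, with a mean log2 ratio of 0.99 ± 0.53 (SD, n = 6 mice). Among *Sdc3*, *Ndst1*, *Sdc4* and *Ndst2*, neighbours in this order did not differ beyond the spread over the 6 mice, which pools the groups. The gene named earlier was the higher of each pair in 3 or 4 of 6 mice. By group, *Sdc3* was above *Ndst1* in every *Prdm1*-CKO mouse, and among CTL mice in replicate 1 alone. *Ext1* followed at 3.35 ± 1.34 CPM per kb (SD, n = 6 mice), under *Ndst2* in 5 of 6 mice, and *Sdc1* was lowest at 1.61 ± 0.942 CPM per kb (SD, n = 6 mice), or 1.93 ± 0.577 CPM per kb (SD, n = 5 mice) without CTL replicate 2, where it had 0 counts.

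*Ext1* and *Ext2* encode partners in 1 complex, yet their levels per kb were not alike. The ratio of *Ext2* to *Ext1* per kb was 6.03, 1.92 and 6.71 in CTL and 7.11, 3.43 and 4.70 in *Prdm1*-CKO mice. *Ext2* was thus above *Ext1* in every mouse, by the least in CTL replicate 2. The ratio of *Ndst1* to *Ndst2* per kb was 1.29 ± 0.491 (SD, n = 3) in CTL and 1.20 ± 0.373 (SD, n = 3) in *Prdm1*-CKO mice. *Ndst1* was the lower of the pair in replicate 3 of each group. The plot of levels per kb gives all values in this order.

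**Figure D4:**
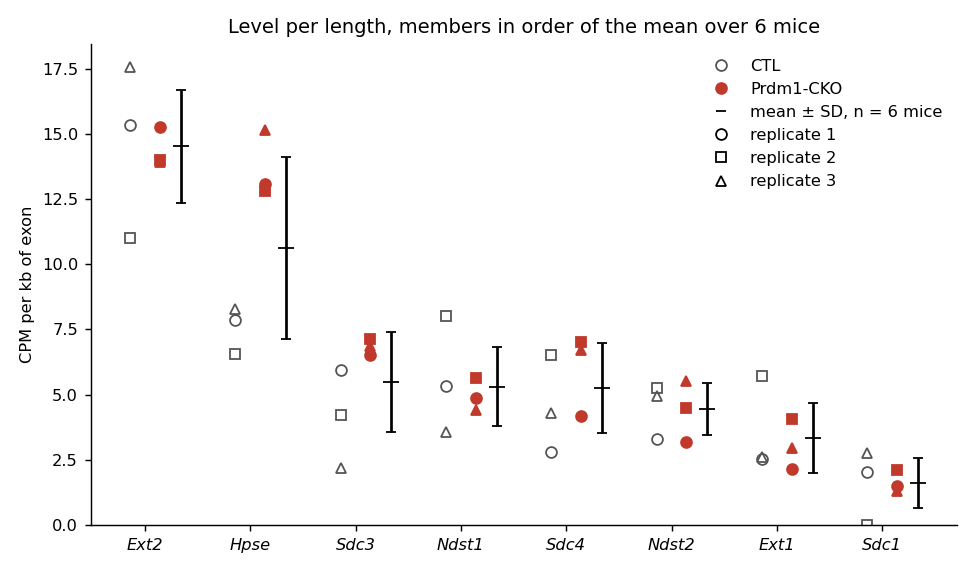
Level of each gene in CPM per kb of exon (y axis, from 0) by mouse, for CTL (open grey) and Prdm1-CKO (filled red), ordered by the mean over 6 mice, which is drawn with its SD in black. The means of Ext2 and Hpse stand above those of the other genes, whereas in CTL replicate 2 Ndst1 (8.03 CPM per kb) is above Hpse (6.54 CPM per kb).

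The other genes of the heparan sulfate pathway were tested in edgeR's quasi-likelihood fit over all 14555 genes. Of 60 such genes, 43 passed the filter, 10 had 0 counts in all mice and 7 had too few counts. At an adjusted p under 0.05, 0 of the 43 genes were higher or lower in *Prdm1*-CKO Tfh cells, as were 0% of all genes tested. At an unadjusted p under 0.05, 2 of the 43 were higher and 0 were lower, beside 0.928% and 1.42% of all genes tested. The same 2 genes, *B3galt6* among them, were those in which the *Prdm1*-CKO levels were all above the CTL levels, beside 4.56% of all genes tested. In 1 gene, *Papss1*, every *Prdm1*-CKO mouse was below, beside 3.86% of all genes tested. Both counts were near these shares, and nothing is read from them. DESeq2 called 9 of all genes at an adjusted p under 0.05, 0 of them in this pathway, and limma-voom with quality weights called 0 of all genes.

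*B3galt6* encodes a galactosyltransferase of the linker that joins the chain to its core protein. It was at 17.5, 10.7 and 15.2 CPM in CTL and at 23.3, 19.3 and 25.9 CPM in *Prdm1*-CKO mice. The log2 fold change was 0.66 with a standard error of 0.28 (unadjusted p = 0.0450, adjusted p = 0.996 from edgeR), and the unadjusted p was under 0.05 in 7 of 13 alternatives, with an adjusted p from 0.689 to 1.00. It did not pass the adjusted threshold in any of them. Without CTL replicate 2, its lowest mouse, the log2 fold change was 0.47 with a standard error of 0.25 (unadjusted p = 0.0933, adjusted p = 0.999 from edgeR). *Papss1*, which makes the sulfate donor, was at 47.8, 48.9 and 60.4 CPM in CTL and at 47.4, 39.6 and 40.9 CPM in *Prdm1*-CKO mice (log2 fold change -0.30, standard error 0.19, adjusted p = 0.996 from edgeR).

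By role, 8 of 8 genes of lysosomal breakdown were tested, 5 with a log2 fold change above 0, with a median of 0.18. *Gusb*, the lysosomal glucuronidase, had the highest level per kb among them, at 26.8 CPM per kb over the 6 mice, and a log2 fold change of 0.08. The 7 linker genes had a median of -0.08, with *B4galt7*, the first galactosyltransferase of the linker, highest at 13.9 CPM per kb. The 3 genes of chain initiation ran from -0.12 to -0.07, with *Extl3*, which adds the first glucosamine, highest at 10.8 CPM per kb. Of the 14 genes for the epimerase and further sulfotransferases, 5 were tested, with a median of -0.29 and *Hs3st3b1*, a 3-O-sulfotransferase, highest at 3.59 CPM per kb. All 6 genes for sulfate and sugar donors were tested, with a median of 0.08 and *Slc35b2*, the transporter of the sulfate donor, highest at 28.3 CPM per kb.

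Among 13 other core proteins, 7 were tested, with a median of -0.13. *Srgn*, which encodes the granule proteoglycan serglycin, was by far the highest at 295 CPM per kb and had a log2 fold change of 0.13. Of the 3 genes for editing outside the cell, *Sulf2*, a 6-O-endosulfatase, was the only one tested, at 4.42 CPM per kb and a log2 fold change of -0.41. *Hpse2*, the heparanase paralog, had 0 counts in all mice, which allows at most 0.177 to 0.420 CPM by library. All 6 genes for heparanase processing and syndecan handling were tested, with a median of -0.0029. *Sdcbp*, which encodes the syndecan-binding adaptor syntenin, was highest at 67.8 CPM per kb, and *Ctsl*, the protease that activates heparanase, was at 14.2 ± 4.92 CPM (SD, n = 3) in CTL and 16.4 ± 1.78 CPM (SD, n = 3) in *Prdm1*-CKO mice. Over the 43 genes the median log2 fold change was -0.02, with 20 above 0 and 23 below, beside 0.010 over all genes. None of the genes named by role here passed the adjusted threshold (adjusted p = 0.996 for each from edgeR).

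**Figure D5:**
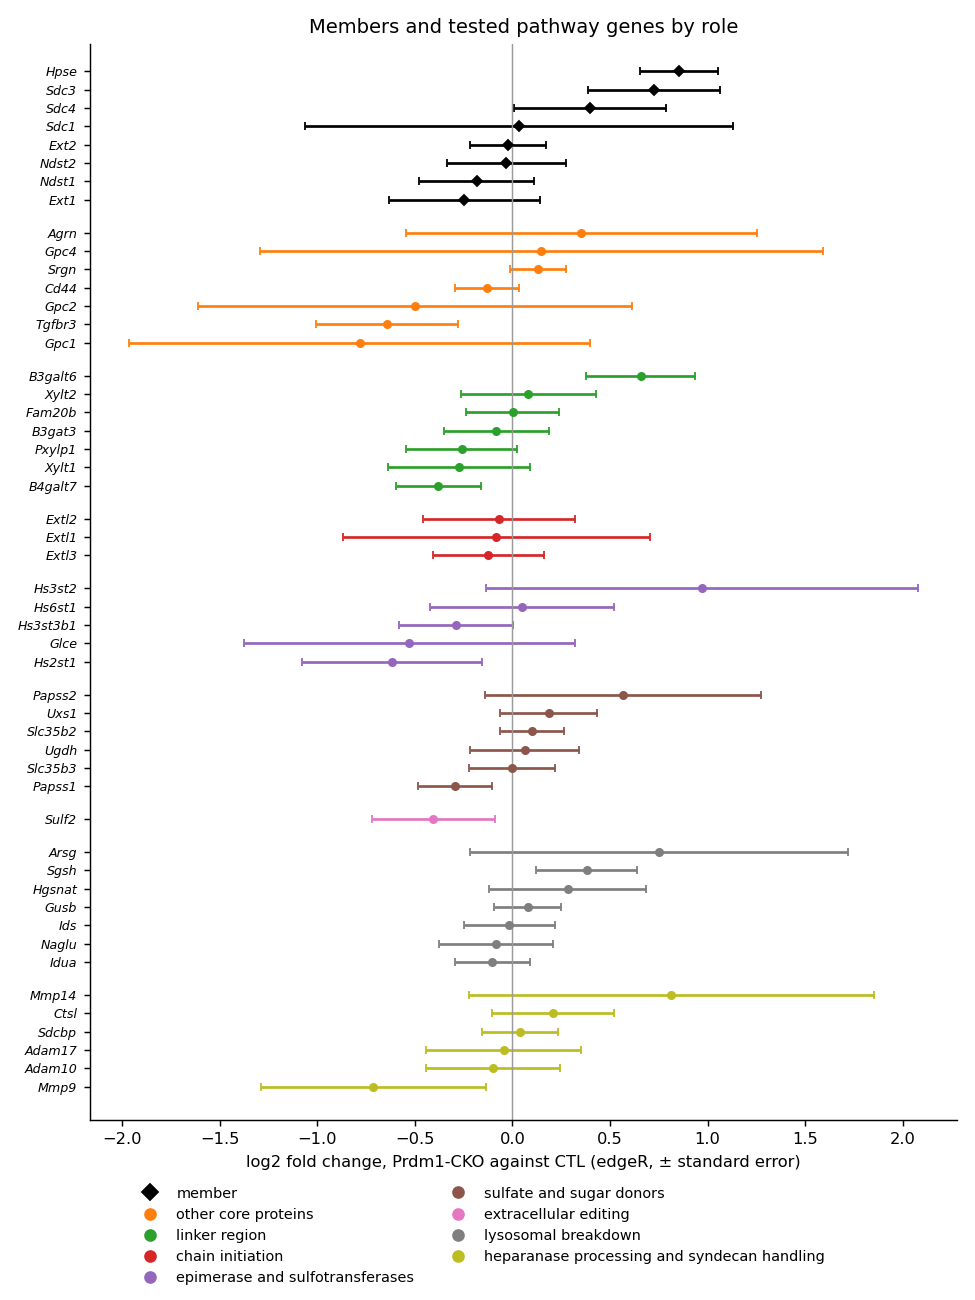
Log2 fold change of Prdm1-CKO against CTL with its standard error from edgeR (x axis) for the 8 genes of the set (black diamonds, described without a test) and all but 1 of the 43 tested pathway genes, coloured by role. Hpse and Sdc3 head the set, B3galt6 had an unadjusted p under 0.05, and Sdc1, with 0 counts in CTL replicate 2, has the widest bar of the set.

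Other cell types that express heparanase or syndecans could contribute RNA, and their markers are given for that reason. All 10 macrophage markers were detected, 9 were tested, and 9 of those had a log2 fold change above 0, 1 of them with an unadjusted p under 0.05 (edgeR). Over all 14555 genes tested, 0.928% were higher and 1.42% lower at that threshold. In 4.56% of all genes every *Prdm1*-CKO mouse was above every CTL mouse, and in 3.86% every one was below. Of the 10 macrophage markers, 9 were lower in CTL replicate 2 than in any other mouse. CTL replicate 1 had a summed macrophage level of 1425 CPM, inside the range of the *Prdm1*-CKO mice, and a *Hpse* level of 27.6 CPM, below all of them. For *Sdc3* the same mouse, at 35.6 CPM, was the CTL mouse nearest to the *Prdm1*-CKO group, and the part of macrophage RNA in *Hpse* and *Sdc3* was not tested. Platelets and megakaryocytes are known to be rich in heparanase, and their markers *Pf4* and *Ppbp* had at most 0.411 CPM in every mouse, with *Gp6* at 0 counts in all mice. The marker *Itga2b* of the same list was detected in every mouse, at 2.66 to 26.4 CPM. The summed level of that list, mostly *Itgb3*, was 16.9 to 63.5 CPM in CTL and 31.7 to 46.6 CPM in *Prdm1*-CKO mice. The part of such RNA in *Hpse* was not tested. The summed levels of 8 CD8 and NK cell markers, 136 to 217 CPM in CTL and 106 to 173 CPM in *Prdm1*-CKO mice, and of 7 basophil and mast cell markers, 34.0 to 118 CPM and 56.4 to 67.6 CPM, overlapped between the groups. Of the CD8 and NK cell markers 2 of 8 had a log2 fold change above 0 and 2 had an unadjusted p under 0.05 (edgeR), with *Cd8a* and *Gzma* lower and *Cd8b1* higher in each *Prdm1*-CKO mouse than in any CTL mouse. Of the basophil and mast cell markers 3 of 7 were above 0 and 2 had an unadjusted p under 0.05 (edgeR), with *Fcer1a* lower in each *Prdm1*-CKO mouse. Overlap was also seen for 8 neutrophil and monocyte markers, 320 to 390 CPM in CTL and 371 to 405 CPM in *Prdm1*-CKO mice. Of the 7 tested, 6 had a log2 fold change above 0 and 0 had an unadjusted p under 0.05 (edgeR).

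The 3 remaining lists overlapped between the groups as well. The summed level of 10 B cell markers was 109 to 181 CPM in CTL and 154 to 242 CPM in *Prdm1*-CKO mice, with *Ms4a1*, the gene of CD20, between 11.5 and 32.5 CPM. All 10 had a log2 fold change above 0, 0 of them with an unadjusted p under 0.05 (edgeR). In 3 (*Cd79b*, *Pax5* and *Cr2*) the *Prdm1*-CKO levels were all above the CTL levels, beside 4.56% of all genes tested. CTL replicate 2 was the lowest mouse in 6 of the 10 B cell markers and had 0 counts in 3 of them. The summed level of 8 dendritic cell markers was 150 to 226 CPM in CTL and 156 to 289 CPM in *Prdm1*-CKO mice. The 7 erythroid markers reached 7.11 to 17.6 CPM in CTL and 12.1 to 47.4 CPM in *Prdm1*-CKO mice. All 4 that were tested had a log2 fold change above 0. Of these, 3 had an unadjusted p under 0.05 (edgeR), beside 0.928% of all genes tested that were higher at that threshold. Their part in the *Hpse* difference was not tested.

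The genes whose levels over the 6 mice were most like those of *Hpse* were named by the highest Pearson correlation of log2 CPM among 9300 tested genes with a mean of at least 10 CPM. They were *Ccrl2* (r = 0.982), *Erp29* (r = 0.973) and *Timm8b* (r = 0.971), each over 6 mice. The values describe these mice only, since *Hpse* itself separates the groups and the libraries share depth and normalization. *Ccrl2* lay between 10.9 and 14.9 CPM in CTL and between 18.9 and 20.8 CPM in *Prdm1*-CKO mice. Within the set, *Sdc3* was most like *Hpse* (r = 0.613 over 6 mice) and *Ndst1* least (r = -0.401 over 6 mice).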

How the data were processed

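RNA of sorted splenic Tfh cells from 3 CTL and 3 *Prdm1*-CKO mice was measured, 1 Smart-seq2 library per mouse. The authors sequenced both ends with 25 bp reads, mapped these to GRCm38.p6 with GENCODE M9 annotation (STAR 2.4.2a is named in the submitters' processing notes) and deposited raw counts per gene from featureCounts 1.4.6, not normalized. Strand setting, multiply mapped reads and fragment counting are not given in the sources used here. Gene symbols, exon lengths and coordinates were taken by identifier without version from GENCODE M21 on GRCm38, which held 53274 of 53379 identifiers. Of the 8 members, *Ndst1* has another version there, so its coordinates are not given.

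The 8 members and all gene lists were chosen with earlier results of these data known. Counts were filtered with filterByExpr, normalized by TMM and tested with edgeR 4.0.16 in R 4.3.3 (quasi-likelihood F test, 3 against 3 mice, no covariate, Benjamini-Hochberg over 14555 genes, two-sided). Levels are CPM with TMM factors, per kb of summed exon length where genes are compared, with a prior count of 2 for log2 CPM. The standard error of a log2 fold change was taken from the fold change and its F value. P-values measure the spread between mice, and 3 counts were taken as the floor. Named genes were the members, the highest gene per kb of each pathway role, pathway genes with an unadjusted p under 0.05, the first markers of each list and the 3 genes most correlated with *Hpse*. *Papss1*, *Ctsl*, *Hpse2* and further markers and pathway genes were named after their values were seen. Values of 1 pathway gene and 1 marker are not reported here. The steps were tested on simulated data. Alternatives were DESeq2 1.42.0 (size factors and Wald test), the replicate block, a filter of 10 counts per mouse or none, limma 3.58.1 voom with quality weights, the transcript *CT010467.1* left out and each mouse left out in turn. Leaving out CTL replicate 2 from the ratios of *Hpse* to single genes and from levels per kb was chosen after seeing the data. No pair of libraries was identical. The qPCR, flow cytometry and ELISA data were not analysed here.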

Additional observations from a re-analysis of the deposited data

How the results depend on the processing

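All alternatives below were listed together with the design. *Hpse* kept a log2 difference between 0.75 and 0.93 in all 13 alternatives, *Sdc3* between 0.43 and 1.09 and *Sdc4* between 0.13 and 0.74, and the direction of these 3 genes was the same throughout. The direction changed in 1 alternative each for *Ext1* (to 0.23) and *Ndst1* (to 0.15), both without CTL replicate 2, in 2 of 12 for *Sdc1* (from -0.56 to 0.66 over its alternatives) and in 4 each for *Ext2* (-0.20 to 0.13) and *Ndst2* (-0.23 to 0.18). With at least 10 counts in every mouse *Sdc1* could not be fitted. With a mouse left out, the mean log2 ratio of *Hpse* to the other 7 genes differed between the groups by 0.68 to 0.91. Size factors do not enter this ratio.

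Genes at an adjusted p under 0.05, 0 with edgeR, were 9 with DESeq2's Wald test and 1 without a filter, and 0 pathway genes were among them. With edgeR, 135 genes were higher and 207 lower at p under 0.05 before adjustment. These became 264 and 417 with DESeq2 and 426 and 510 without a filter, and 268 were higher with voom. With each mouse left out in turn, between 58 (without *Prdm1*-CKO replicate 3) and 580 (without CTL replicate 1) were higher, and between 107 (without *Prdm1*-CKO replicate 1) and 617 (without CTL replicate 3) were lower. Pathway genes at this threshold, 2 higher and 0 lower, were 1 higher without a filter and 1 with at least 10 counts in every mouse, were 3 higher with voom (*Hgsnat* added), and 0 to 2 were higher and 0 to 2 lower with a mouse left out. The cause was not tested.

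Whether the replicate numbers pair the mice is not stated in the labels, and weak correlations in so few mice cannot settle it. Deviations of same-numbered mice from their group means correlated at 0.158, 0.028 and 0.016. Those of differently numbered mice correlated at -0.131 to 0.083. CTL replicates 1 and 2 correlated best with the same-numbered mouse, and CTL replicate 3 with *Prdm1*-CKO replicate 2. With the replicate block the log2 difference was 0.86 for *Hpse*, 0.83 for *Sdc3* and 0.64 for *Sdc1* (0.03 without it), and 2 pathway genes were higher. By CPM in place of CPM per kb, *Hpse* ranked 3 and *Ndst1* 2 among the 8 genes. A level under the floor of 3 counts, such as that of *Sdc1* in CTL replicate 2, can only be given an upper bound. That library held 8623180 counts, more than the 7147601 of CTL replicate 3, where *Sdc1* had 71 counts.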

Other observations

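Some genes of this pathway were unevenly recovered, not all of them of few counts in the other mice. Of 50 genes of the set and pathway list with at least 5 counts in each of the other 5 mice, 7 had at most 2 counts in CTL replicate 2. They were *Sdc1*, the glypicans *Gpc1* and *Gpc2*, which are membrane-anchored core proteins, *Agrn*, which encodes the basement membrane proteoglycan agrin, the sulfotransferase gene *Hs3st2*, the lysosomal sulfatase gene *Arsg* and *Mmp14*, which encodes a protease that can shed syndecans. *Agrn* counts were 164, 2 and 65 in CTL and 170, 80 and 136 in *Prdm1*-CKO mice. *Arsg* counts were 97, 1 and 17 in CTL and 57, 71 and 81 in *Prdm1*-CKO mice. For each of the other mice, 0 of 43 such genes were at 2 counts or fewer. Those sets require at least 5 counts in CTL replicate 2, so they leave out the 7 genes and the comparison is not like for like.

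*Hgsnat*, which encodes the lysosomal acetyltransferase of heparan sulfate breakdown, spread widely in CTL, at 29.9, 48.8 and 104 CPM, and was at 72.9, 66.0 and 82.8 CPM in *Prdm1*-CKO mice. Its log2 fold change was 0.28 with all mice (unadjusted p = 0.503 from edgeR), 0.78 with voom and quality weights (unadjusted p = 0.0453, adjusted p = 1.00 from limma) and 0.92 without CTL replicate 3 (unadjusted p = 0.00828, adjusted p = 0.760 from edgeR). *Glce*, the gene of the epimerase, stood at 260, 134 and 20 counts in CTL mice against 338, 27 and 52 in the *Prdm1*-CKO group, so that mice of both groups were high and low. These genes were named after their values were seen.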
